A study of Homo sapiens with 4 samples.

Results

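Antisense genes are transcribed from the strand opposite a named sense gene, and the peaks that the authors labelled with such genes were examined in cardiac progenitor cells. A peak is a region of open chromatin. Members were the peaks whose gene symbol ends in -AS with or without a number, and the sense gene was read from the text before that ending. These were 455 of 60875 peaks, carrying 410 antisense symbols, after 3 peaks with HOX antisense symbols had been left out. The other 12648 symbol-bearing peaks served as the nearest comparison. ATAC-seq, which reads where a transposase can reach the DNA, was done on day 6 of differentiation of WTC11, a widely used line of human induced pluripotent stem cells, established and labelled as wild type. The 2 high libraries, titled as biological replicates, stand for a high final purity of cardiomyocytes and the 2 low libraries, titled likewise, for a low one. All 4 libraries came from this line, so that the comparison covers a single genetic background. Analysed here was the authors' finished comparison per peak, without values for single libraries, and replicate spread is present only as the standard error (SE) of a log2 fold change. In the table, peaks marked Up have negative and peaks marked Down have positive log2 fold changes. The sources used here do not say which purity group the fold is taken over, and so a difference is placed on the Up side (negative) or the Down side (positive), not in a purity group. A peak with their symbol was found for 4 of 8 cardiac, 2 of 4 endoderm, 2 of 3 endothelial and 0 of 2 pluripotency marker genes. These were 4 cardiac, 3 endoderm and 2 endothelial peaks. Of them 1 cardiac peak changed on the Up side and 1 endothelial peak on the Down side, against 2.36% and 3.64% of all peaks. Log2 fold changes ran from -1.06 to 0.58 in the cardiac, -0.94 to -0.049 in the endoderm and 0.32 to 1.19 in the endothelial peaks. So few peaks cannot say whether a cell type differed, and a peak shows open chromatin and not the level of a transcript.

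Natural antisense transcripts are mostly long noncoding RNAs. Some start close to the promoter of the sense gene and run away from it, so that a single nucleosome-depleted region serves both, and others start inside the sense gene and overlap it. In a few well studied loci the antisense RNA or its transcription modulates the sense gene. ATAC-seq does not read strand, and a peak at a shared promoter cannot be given to either gene. For 287 peaks RefSeq start sites of both genes were at hand, and in 287 of them the 2 genes lay on opposite strands.

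Promoter windows run from 250 bases before to 50 bases after a RefSeq start site (RefSeq sequence, build GRCh38.p14). A RefSeq window was found for 322 of the 455 peaks by antisense symbol and for 365 by sense symbol. The windows below belong to the loci where a changed antisense-labelled peak covered the start region of either gene. The B4GALT1-AS1 window is added as a contrast, since 80 of its 300 bases, with the start site, lay under the sense-labelled peak and none under the changed antisense-labelled peak. Each is printed 5′ to 3′ on the strand of its gene. Capitals mark matches, on either strand, to any of 4 short motifs. AGATAA is the form bound by GATA factors of heart and endoderm. CCAAT is bound by the general promoter factor NF-Y. GGGCGG, the GC box, is bound by the SP family. CCGGAAG is the core of sites for ETS factors. No matches overlapped.
ELF3 (chr1:202010337-202010636, plus strand): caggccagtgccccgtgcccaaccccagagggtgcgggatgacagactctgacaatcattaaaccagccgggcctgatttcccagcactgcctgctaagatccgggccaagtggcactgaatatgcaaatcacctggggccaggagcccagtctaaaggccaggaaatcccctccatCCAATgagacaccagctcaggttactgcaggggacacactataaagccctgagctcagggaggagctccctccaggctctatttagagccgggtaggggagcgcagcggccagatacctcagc
LNX1 (chr4:53591437-53591736, minus strand): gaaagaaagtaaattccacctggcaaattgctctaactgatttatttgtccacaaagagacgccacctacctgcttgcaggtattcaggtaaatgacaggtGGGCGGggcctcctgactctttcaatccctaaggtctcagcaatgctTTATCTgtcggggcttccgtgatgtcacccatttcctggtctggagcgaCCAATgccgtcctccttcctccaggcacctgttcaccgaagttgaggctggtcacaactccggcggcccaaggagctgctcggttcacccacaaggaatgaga
GNG12-AS1 (chr1:67832038-67832337, plus strand): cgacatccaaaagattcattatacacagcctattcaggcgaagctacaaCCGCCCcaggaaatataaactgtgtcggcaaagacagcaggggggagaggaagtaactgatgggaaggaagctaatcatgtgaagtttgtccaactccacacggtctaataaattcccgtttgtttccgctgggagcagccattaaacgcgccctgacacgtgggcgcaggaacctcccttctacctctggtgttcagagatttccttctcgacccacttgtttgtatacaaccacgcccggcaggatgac
PRICKLE2-AS3 (chr3:64187294-64187593, plus strand): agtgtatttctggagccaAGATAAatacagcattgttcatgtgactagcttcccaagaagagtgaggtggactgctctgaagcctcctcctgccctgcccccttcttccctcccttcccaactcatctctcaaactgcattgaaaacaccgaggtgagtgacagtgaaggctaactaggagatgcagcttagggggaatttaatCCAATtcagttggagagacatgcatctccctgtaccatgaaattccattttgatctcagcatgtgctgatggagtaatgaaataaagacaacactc
DSG1-AS1 (chr18:31426939-31427238, minus strand): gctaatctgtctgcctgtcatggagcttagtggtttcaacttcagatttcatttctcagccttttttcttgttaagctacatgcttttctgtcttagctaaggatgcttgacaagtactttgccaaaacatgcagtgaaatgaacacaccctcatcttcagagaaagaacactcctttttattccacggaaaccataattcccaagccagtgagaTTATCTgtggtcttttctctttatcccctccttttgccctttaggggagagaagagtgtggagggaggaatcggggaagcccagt
B4GALT1-AS1 (chr9:33166698-33166997, plus strand): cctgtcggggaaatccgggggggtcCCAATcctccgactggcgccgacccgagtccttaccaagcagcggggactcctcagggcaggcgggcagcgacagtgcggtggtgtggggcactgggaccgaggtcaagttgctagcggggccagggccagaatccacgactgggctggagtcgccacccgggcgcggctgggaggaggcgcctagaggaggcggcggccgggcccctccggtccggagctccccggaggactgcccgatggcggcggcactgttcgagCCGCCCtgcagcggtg
The ELF3 and ELF3-AS1 windows share 267 bases, because their start sites lie 234 bp apart on opposite strands, so the ELF3 window above stands for both. It holds an NF-Y motif, whose first base lies 73 bases before the ELF3 start. The LNX1 window holds a GATA motif, an NF-Y motif and a GC box. Over the 323 windows of 291 antisense genes, the GATA motif was found in 7.43%, the NF-Y motif in 34.7%, the GC box in 55.1% and the ETS motif in 8.05%. Over all 35116 windows these shares were 10.3% for GATA, 34.6% for NF-Y, 45.0% for the GC box and 10.3% for ETS. These are counts of letters and not of bound sites. The median GC content was 63.7% in the antisense windows and 58.7% in all windows. The median ratio of observed to expected CpG was 0.754 in the antisense windows and 0.579 in all windows. In the 602 windows of 318 sense genes the median GC content was 63% and the median CpG ratio 0.732. There the GC box was found in 58.0%, the NF-Y motif in 35.5%, the GATA motif in 8.64% and the ETS motif in 9.97%. A high GC, CpG and GC box content was thus not particular to the antisense genes.

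Few antisense-labelled peaks changed, and those that did were split evenly between the sides. By the authors' deposited values, 12 of 455 had an adjusted p under 0.05 (2.64%, exact binomial 95% interval 1.37% to 4.56%, counting error only), 6 Up and 6 Down. Over all peaks 6.0% passed (2.36% Up and 3.64% Down), and over the other symbol-bearing peaks 2.09% passed (1.25% and 0.838%). The share of the antisense-labelled peaks was thus near that of other symbol-bearing peaks. The authors' own marking held 15 members, against 9.84% of all peaks. An adjusted p under 0.01 left 3 members, against 3.11% of all peaks, and one under 0.1 gave 19, against 8.37%. At an unadjusted p under 0.05 there were 33 (7.25%), against 7.20% of the other symbol-bearing peaks and 16.4% of all peaks. Their median log2 fold change was 0.032, with 249 values above and 206 below 0, and the median absolute value was 0.18. In the other symbol-bearing peaks these medians were 0.029 and 0.19, and in all peaks 0.0015 and 0.31. The median SE was 0.30 in the antisense-labelled peaks. Their mean normalized counts ran from 14.4 to 929, with a median of 91.9 against 47.8 over all peaks.

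**Figure D1:**
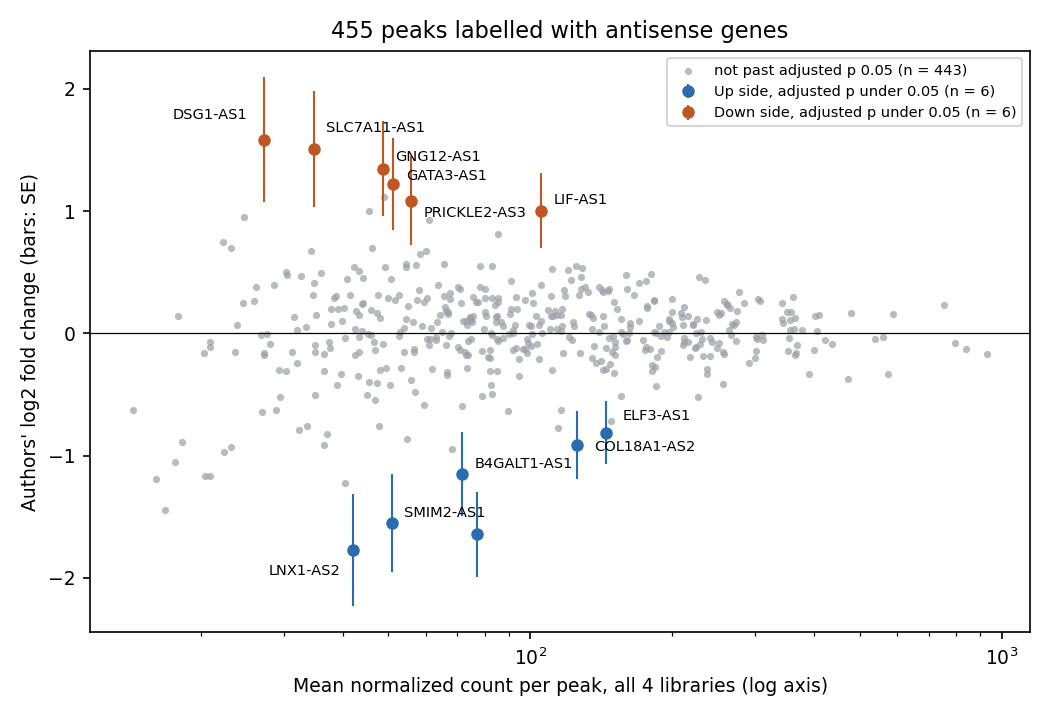
Log2 fold change per the authors' deposited table against mean normalized count (log axis) for the 455 antisense-labelled peaks; coloured points with SE bars passed an adjusted p under 0.05. The 6 peaks on the Up side lie between -1.77 and -0.81, and the Down side reaches 1.59.

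The changed peaks of the Up side described here carried the symbols ELF3-AS1, LNX1-AS2, SMIM2-AS1, B4GALT1-AS1 and COL18A1-AS2. ELF3 encodes an ETS transcription factor of epithelia. The peak labelled ELF3-AS1 stood at -0.81 ± 0.26 (SE, adjusted p = 0.0342, 1.75-fold; chromosome 1, 202010280 to 202010793) per the authors' deposited table. It covered 300 of 300 bases of both promoter windows, that is, the shared ELF3 and ELF3-AS1 start region printed above.

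LNX1 encodes an E3 ubiquitin ligase that binds NUMB. The peak labelled LNX1-AS2 had the lowest log2 fold change of all 455, -1.77 ± 0.46 (SE, adjusted p = 0.00431, 3.42-fold; chromosome 4, 53591341 to 53591764), per the authors' deposited table. It covered 300 of 300 bases of the LNX1 window, lay 1192 bp from the start of LNX1-AS2, and no peak carried the symbol LNX1. The LNX1 start used, 53591486, lies inside the body of this minus-strand gene, which runs from 53652477 down to 53459301. The window is thus that of an internal start. All 6 peaks within 10000 bp of the 2 genes had negative log2 fold changes, and 2 of them, including the LNX1-AS2 peak, changed, against 6.0% of all peaks. The peak labelled SMIM2-AS1 stood at -1.55 ± 0.40 (SE, adjusted p = 0.00414, 2.93-fold; chromosome 13, 44108435 to 44108958) per the authors' deposited table, 1591 bp before the start of that gene. B4GALT1 encodes a galactosyltransferase of the Golgi. The peak labelled B4GALT1-AS1 stood at -1.15 ± 0.34 (SE, adjusted p = 0.0182, 2.22-fold; chromosome 9, 33165683 to 33166053) per the authors' deposited table, and lay inside the body of B4GALT1. Around B4GALT1, 6 of the 8 peaks within 10000 bp had positive log2 fold changes, and the antisense-labelled peak was the only 1 of the 8 that changed, against 6.0% of all peaks. COL18A1 encodes collagen XVIII of basement membranes, the source of endostatin. The peak labelled COL18A1-AS2 stood at -0.91 ± 0.27 (SE, adjusted p = 0.0212, 1.88-fold; chromosome 21, 45411465 to 45411869) per the authors' deposited table. It lay inside COL18A1, where 2 further peaks without a symbol, named after their values were seen, changed on the Up side, at -0.87 ± 0.19 (45430377 to 45431445) and -2.06 ± 0.47 (SE; 45469585 to 45470008) per the authors' deposited table. These were 3 changed peaks among the 5 within 10000 bp of the 2 genes, against 2.36% of all peaks on the Up side.

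Those of the Down side carried the symbols DSG1-AS1, SLC7A11-AS1, GNG12-AS1, LIF-AS1, PRICKLE2-AS3 and GATA3-AS1. DSG1 encodes desmoglein 1, a desmosomal cadherin best known from epidermis. The peak labelled DSG1-AS1 had the highest log2 fold change of all 455, 1.59 ± 0.51 (SE, adjusted p = 0.0363; chromosome 18, 31426785 to 31427131), per the authors' deposited table. It also had the lowest mean normalized count of the 12, 27.3. SLC7A11 encodes the light chain of the cystine and glutamate antiporter. The peak labelled SLC7A11-AS1 stood at 1.51 ± 0.48 (SE, adjusted p = 0.0305, 2.85-fold; chromosome 4, 138053618 to 138054045) per the authors' deposited table, 34969 bp outside the body of its gene. GNG12 encodes a gamma subunit of heterotrimeric G proteins. The peak labelled GNG12-AS1 stood at 1.35 ± 0.39 (SE, adjusted p = 0.0141, 2.54-fold; chromosome 1, 67832045 to 67832464) per the authors' deposited table, and covered 293 of 300 bases of the GNG12-AS1 window. Within 10000 bp of the 2 genes lay 23 peaks, 15 with positive and 8 with negative log2 fold changes (median 0.19). Of these 3 changed, the GNG12-AS1 peak included and each on the Down side, against 3.64% of all peaks.

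LIF encodes leukemia inhibitory factor, a cytokine. The peak labelled LIF-AS1 stood at 1.0 ± 0.31 (SE, adjusted p = 0.0241, 2.01-fold; chromosome 22, 30235653 to 30236231) per the authors' deposited table. PRICKLE2 encodes a protein of planar cell polarity. The peak labelled PRICKLE2-AS3 stood at 1.09 ± 0.37 (SE, adjusted p = 0.0497, 2.12-fold; chromosome 3, 64187160 to 64187525) per the authors' deposited table, and covered 232 bases of the PRICKLE2-AS3 window inside the body of PRICKLE2. It passed narrowly, and its adjusted p was 0.0687 after recentring on a running median along mean count. The next peak in order of adjusted p, labelled SLC25A30-AS1, missed the threshold at 1.11 ± 0.38 (SE, adjusted p = 0.0555) per the authors' deposited table.

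GATA3 encodes a zinc finger transcription factor of T cells, trophoblast and several epithelia, and GATA3-AS1 carried 2 peaks with opposite signs. The peak inside GATA3 at chromosome 10, 8057761 to 8058062, stood at 1.22 ± 0.38 (SE, adjusted p = 0.0267, 2.33-fold) per the authors' deposited table. The other, at 8054466 to 8054845, overlapped a GATA3 promoter window by 272 bases and stood at -0.86 ± 0.37 (SE, adjusted p = 0.181) per the authors' deposited table. The difference between them was 2.09 log2 units with an SE of 0.53 if the errors are taken as independent, the widest among the 44 antisense genes with more than 1 peak. These 44 genes held 89 peaks with a median range of 0.32, and 23 genes had peaks on both sides of 0. GSN-AS1, antisense to the gelsolin gene GSN, had -0.72 ± 0.25 and 0.41 ± 0.26 (SE, adjusted p = 0.0598 and 0.469) at peaks inside GSN per the authors' deposited table.

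Antisense-labelled peaks were few in each gene list examined, that of cardiac regulators included. Of a list of 38 cardiac and mesoderm genes, 6 had an antisense-labelled peak, with 8 peaks in all, of which 0 had a DESeq2 adjusted p under 0.05 and 0 an unadjusted p under 0.05. With 8 peaks and 6.0% of all peaks called (2.09% of the other symbol-bearing peaks), 0 is no result about these genes. Their median log2 fold change was 0.27, against 0.0015 over all peaks. TBX5-AS1, antisense to a T-box factor of the heart, stood at -0.011 ± 0.40 (SE, adjusted p = 0.997) and HAND2-AS1, antisense to a heart field factor, at 0.0021 ± 0.30 (SE, adjusted p = 0.999) per the authors' deposited table. BMP7-AS1, antisense to a bone morphogenetic protein gene, stood at 0.52 ± 0.27 (SE, adjusted p = 0.318) and MEIS1-AS2, antisense to a homeobox cofactor of cardiac progenitors, at 0.65 ± 0.35 (SE, adjusted p = 0.348) per the authors' deposited table. The size of change that could pass differed with the SE. The ELF3-AS1 peak passed at -0.81 with an SE of 0.26, and that of PRICKLE2-AS3 passed narrowly at 1.09 with an SE of 0.37. Smaller changes at such SEs could go uncalled.

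In a list of 20 endoderm and epithelium genes, 4 had an antisense-labelled peak, with 5 peaks, of which 2 changed on the Up side, among them ELF3-AS1, and 1 on the Down side (GATA3-AS1), against 2.36% and 3.64% of all peaks. Their median was -0.86, against 0.0015 over all peaks. In the vascular, matrix and adhesion list, 1 of 7 peaks changed, COL18A1-AS2 on the Up side, with a median of 0.0090, again against 6.0% of all peaks called on either side. LOXL1-AS1, antisense to a lysyl oxidase gene of elastic fibres, stood at -0.54 ± 0.40 (SE, adjusted p = 0.573) per the authors' deposited table. The neural list had 4 peaks (median 0.16), the cell cycle and RNA housekeeping list 5 (median -0.046) and the signalling list 7 (median 0.12), of which 0 passed the DESeq2 adjusted p, and 0 had an unadjusted p under 0.05. Lists this short say nothing at those shares. SOX21-AS1, antisense to a neural SOX factor, stood at -0.93 ± 0.55 (SE, adjusted p = 0.431) and PAX6-AS1, antisense to an eye and forebrain factor, at 0.26 ± 0.30 (SE, adjusted p = 0.803) per the authors' deposited table. MCM3AP-AS1 stood at -0.33 ± 0.20 and SMC2-AS1 at 0.27 ± 0.26 (SE) per the authors' deposited table. IGF2-AS, antisense to an imprinted growth factor gene, stood at 0.35 ± 0.24 and RARA-AS1, antisense to a retinoic acid receptor gene, at 0.38 ± 0.32 (SE) per the authors' deposited table. The lists were written with earlier results of these data known, and their direction is not independent evidence.

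The 3 antisense-labelled peaks of highest mean count did not pass. ZNF687-AS1, antisense to a zinc finger gene, had a mean normalized count of 929 and a log2 fold change of -0.17 ± 0.16 (SE) per the authors' deposited table. FBXL19-AS1 (840) and UBE2D3-AS1 (795) stood at -0.12 ± 0.17 and -0.080 ± 0.16 (SE) per the authors' deposited table. Of the better covered peaks (mean count no lower than the median of all), the largest log2 fold changes also included CDH23-AS1, antisense to a cadherin gene of hair cells, at -0.95 ± 0.34 (SE, adjusted p = 0.0780) per the authors' deposited table.

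The sense gene had its own labelled peak for 206 antisense-labelled peaks (185 antisense genes) and none for 249 (225 genes). Of the 206 peaks 6 changed (2.91%) and of the 249 peaks 6 changed (2.41%), in each set 3 per side. Over all peaks 6.0% passed, and over the other symbol-bearing peaks 2.09%. A sense gene without a labelled peak could still have a peak at its promoter. Of the 249, 196 had a RefSeq promoter window for the sense gene. In 97 of these the antisense-labelled peak itself overlapped a sense window, in 14 another peak of the same antisense gene did, in 25 an unlabelled peak and in 16 a peak with another symbol, which left 44 with no peak at a sense window. LNX1 belongs to the 97, its window lying wholly under the peak labelled LNX1-AS2. Labels and start sites could also be crossed in the other direction. In 16 of 154 pairs with a known antisense start the sense-labelled peak contained that start, among them B4GALT1 and SLC25A30. The antisense-labelled peak contained it in 70 of the 154. In 169 pairs with a known sense start, the sense-labelled peak contained that start in 102 and the antisense-labelled peak in 41. Many pairs thus do not set an antisense start against a sense start.

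Start sites of the 2 genes were close in many loci. Of the 257 antisense genes with both starts known, 138 had starts within 1000 bp, 86 of them divergent (running away from each other) and 52 overlapping. Of the 287 peaks of these genes, 80 contained both starts. In 156 the antisense start was nearer, and in 51 the sense start was nearer. Among peaks of genes with starts within 1000 bp, 3 of 158 changed (1.90%, median absolute log2 fold change 0.15, median SE 0.27, median mean count 120). With starts farther apart, 6 of 129 changed (4.65%, median absolute log2 fold change 0.20, median SE 0.32, median mean count 77.6). Over all peaks 6.0% passed and over the other symbol-bearing peaks 2.09%, and a difference between the 2 sets was not tested. Mean count and SE moved with this split, and their part in it was not tested.

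The CpG content of the promoter window varied among the members at their own start, in a split at the median of all windows (0.579) made after the values were seen. Of the antisense-labelled peaks at a window of their own gene, 36 had a ratio of observed to expected CpG below it, and 3 of these changed (8.33%), namely ELF3-AS1, PRICKLE2-AS3 and DSG1-AS1. At or above it, 1 of 142 changed (0.704%), GNG12-AS1. The ratio was 0.27 in the ELF3 window printed above, 0.063 in that of PRICKLE2-AS3, 0.14 in that of DSG1-AS1 and 0.74 in that of GNG12-AS1. Other symbol-bearing peaks at their own windows showed the same order, with 4.57% of 656 and 0.322% of 5892 changed. Among all peaks the share was 6.0%, and whether the 3 of 36 differ from it was not tested. The median absolute log2 fold change was 0.26 against 0.14 in the antisense-labelled peaks, with median mean counts of 77.4 and 176 and median SEs of 0.32 and 0.24.

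Each of the 206 antisense-labelled peaks was then paired with the nearest peak of its sense gene. The pairs covered 185 antisense genes and 183 sense peaks, with a median gap of 12835 bp (83 to 1754373 bp). Changes within pairs showed no common direction. In 106 pairs (51.5%) both log2 fold changes lay on the same side of 0, 41 of them below and 65 above it, and in 100 they lay on opposite sides. Across pairs, Pearson's r was -0.071 and Spearman's rho -0.038, given as a description, since all pairs share the same libraries. The median difference, antisense minus sense, was -0.026 log2 units (interquartile range -0.30 to 0.29), and the median absolute difference of 0.29 was smaller than the median SE of a difference, 0.44. The share on the same side was not higher in near pairs. It was 46.9% of 49 pairs with a gap under 2000 bp, 44.6% of 65 with 2000 to 20000 bp, 60% of 50 with 20000 to 100000 bp and 57.1% of 42 at 100000 bp or more.

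**Figure D2:**
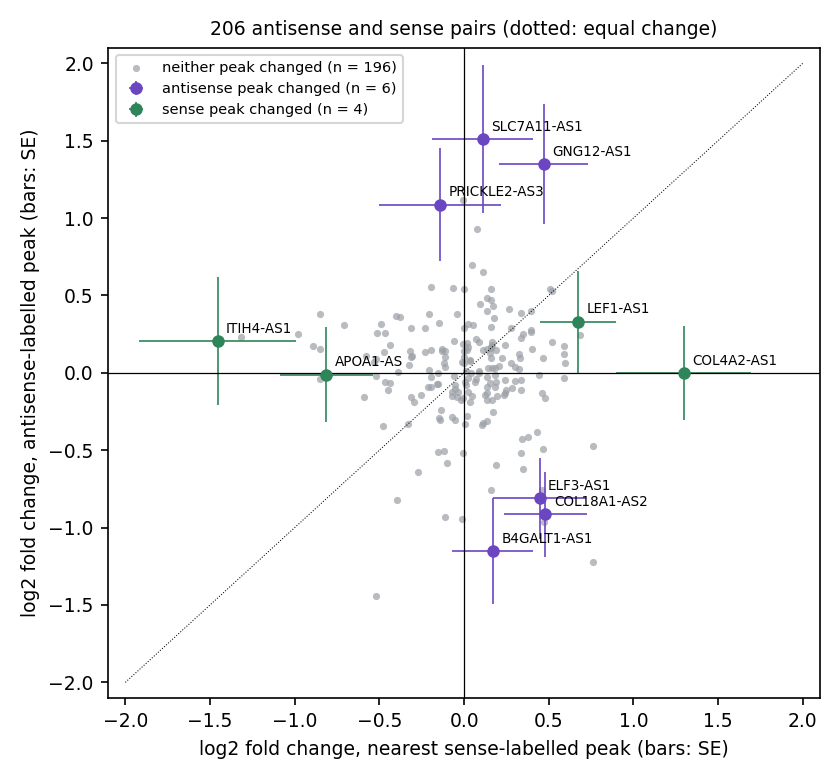
Log2 fold change of the antisense-labelled peak (vertical) against that of the nearest sense-labelled peak (horizontal) for 206 pairs, from the authors' deposited table; coloured points with SE bars are pairs with a changed peak. The 6 pairs with a changed antisense peak and the 4 with a changed sense peak are named; the other points scatter around 0 (Pearson's r over all pairs -0.071).

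In 6 pairs the antisense peak changed and in 4 the sense peak changed, against 6.0% of all peaks. Both had a DESeq2 adjusted p under 0.05 in 0 pairs, and with so few calls this count says nothing about the pairs. At an unadjusted p under 0.05 there were 14 antisense and 18 sense peaks in the 206 pairs, against 7.20% of the other symbol-bearing peaks and 16.4% of all peaks. Both peaks had such a p in 1 pair, with opposite signs, and 1 pair is no result about the pairs. In that pair the peak labelled LHFPL3-AS2 stood at -1.22 ± 0.44 (SE, adjusted p = 0.0761) and the peak labelled LHFPL3, a gene of the tetraspan family, at 0.76 ± 0.33 (SE, adjusted p = 0.186) per the authors' deposited table. These peaks lie 598014 bp apart, and the difference of -1.98 ± 0.55 (95% interval -3.06 to -0.90) was the widest of the pairs. Intervals of differences treat the errors of the 2 peaks as independent and are approximate. They left out 0 in 25 of 206 pairs (12.1%), 11 with the antisense peak lower and 14 with it higher, and some of so many intervals leave out 0 where there is no difference. Pairs named for a changed peak or a wide difference were picked by these same values, which moves their differences away from 0. The intervals of such pairs are descriptions and not tests of a difference.

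In 3 of the 6 pairs with a changed antisense peak, that peak lay on the Up side while the sense-labelled peak lay above 0 without passing. The ELF3-labelled peak (chromosome 1, 202007918 to 202008445) stood at 0.45 ± 0.27 (SE, adjusted p = 0.451) per the authors' deposited table, 1835 bp from the ELF3-AS1 peak and inside the body of ELF3-AS1. The difference was -1.26 ± 0.38 (95% interval -1.99 to -0.52). The B4GALT1-labelled peak (chromosome 9, 33166918 to 33167759), which contained start sites of both genes, stood at 0.17 ± 0.24 (SE, adjusted p = 0.847) per the authors' deposited table. It lay 865 bp from the B4GALT1-AS1 peak, with a difference of -1.32 ± 0.42 (95% interval -2.14 to -0.50). The B4GALT1 start used, 33167159, lies inside the body of this minus-strand gene, which runs from 33185089 down to 33104077. The COL18A1-labelled peak stood at 0.48 ± 0.25 (SE, adjusted p = 0.313) per the authors' deposited table, 7030 bp away, with a difference of -1.39 ± 0.37 (95% interval -2.12 to -0.67).

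In the other 3 pairs the antisense peak lay on the Down side. The GNG12-labelled peak, 235 bp from that of GNG12-AS1, stood at 0.47 ± 0.26 (SE, adjusted p = 0.385) per the authors' deposited table. Its difference of 0.88 ± 0.47 had an interval from -0.042 to 1.80, which holds 0 and also large differences. Whether these neighbours differ was not tested. The SLC7A11-labelled peak stood at 0.11 ± 0.30 (SE, adjusted p = 0.937) per the authors' deposited table, 188074 bp from that of SLC7A11-AS1, with a difference of 1.40 ± 0.56 (95% interval 0.30 to 2.50). The PRICKLE2-labelled peak stood at -0.14 ± 0.36 (SE, adjusted p = 0.931) per the authors' deposited table, 257809 bp away, with a difference of 1.23 ± 0.51 (95% interval 0.22 to 2.24).

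**Figure D3:**
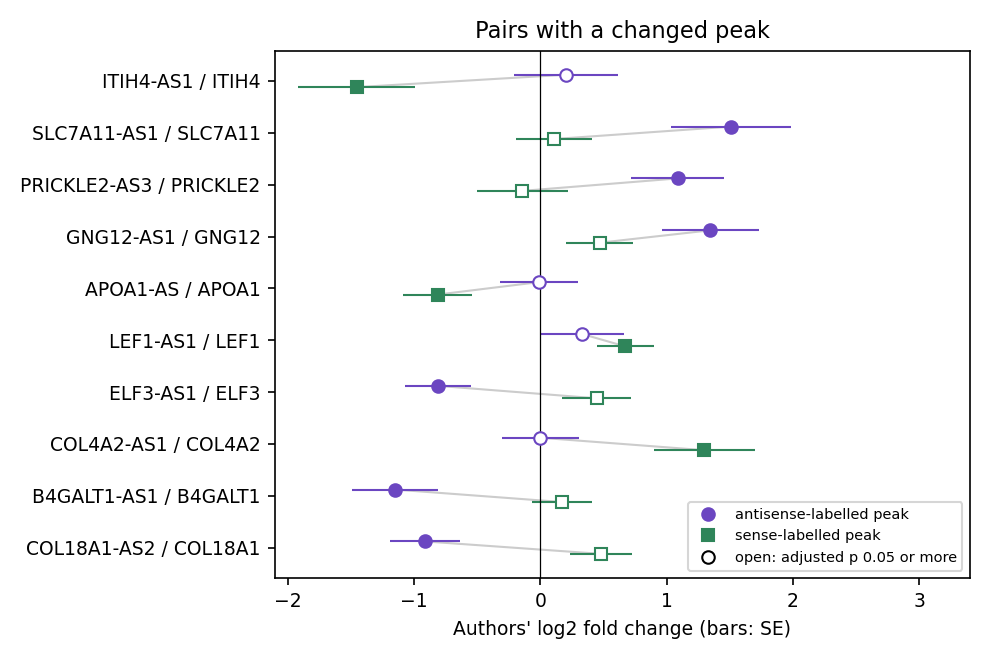
Log2 fold changes with SE bars per the authors' deposited table for the 10 pairs with a changed peak (circles: antisense-labelled, squares: sense-labelled; filled: adjusted p under 0.05). Each pair has only 1 filled symbol, and the antisense symbols of COL18A1-AS2, B4GALT1-AS1 and ELF3-AS1 lie at -0.91, -1.15 and -0.81 with the sense symbols at 0.48, 0.17 and 0.45.

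In the 4 pairs with a changed sense peak, the antisense-labelled peak stayed within 1 SE of 0. ITIH4 encodes a serum protein of the liver, and its peak stood at -1.46 ± 0.47 (SE, adjusted p = 0.0342) per the authors' deposited table, with ITIH4-AS1 at 0.20 ± 0.41. The difference was 1.66 ± 0.62 (95% interval 0.44 to 2.88). APOA1 encodes the main apolipoprotein of high density lipoprotein, and its peak stood at -0.81 ± 0.27 (SE, adjusted p = 0.0491) per the authors' deposited table. The APOA1-AS peak, 1157 bp away, stood at -0.013 ± 0.31 (SE) per the authors' deposited table, a difference of 0.80 ± 0.41 whose interval ran from -0.0059 to 1.61. An unlabelled peak inside the APOA1-AS body (116843015 to 116843388) did pass, with the sign of the APOA1 peak. Its log2 fold change was -1.54 ± 0.48 (SE) and its adjusted p 0.0262 per the authors' deposited table. Of 6 peaks within 10000 bp of these genes 2 passed, each marked by a negative value, against 2.36% of all peaks on that side. LEF1, a transcription factor of WNT signalling, had its peak at 0.67 ± 0.22 (SE, adjusted p = 0.0443) per the authors' deposited table, and LEF1-AS1, 1774 bp away, stood at 0.33 ± 0.33 (SE). The LEF1 call was lost with recentred fold changes (adjusted p = 0.0585). COL4A2 encodes a chain of basement membrane collagen IV, and its labelled peak stood at 1.30 ± 0.40 (SE, adjusted p = 0.0253) per the authors' deposited table. That of COL4A2-AS1, 207553 bp away, stood at -0.0026 ± 0.30 (SE) per the authors' deposited table, a difference of -1.30 ± 0.50 (95% interval -2.28 to -0.32). The COL4A2-labelled peak contained no COL4A2 start and lay outside the body of that gene. An unlabelled peak inside it (110312540 to 110312996) had -1.43 ± 0.30 (SE) and adjusted p = 0.000199 per the authors' deposited table. Among 13 peaks within 10000 bp of these genes, 1 passed per side, against 2.36% (Up) and 3.64% (Down) of all peaks.

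Among the remaining pairs, ADD3-AS1, antisense to the gene of gamma adducin in the membrane skeleton, stood at 0.23 ± 0.20 (SE) and its sense peak at -1.32 ± 0.64 (SE) per the authors' deposited table, a difference of 1.55 ± 0.67. The ADD3-labelled peak had a mean normalized count of only 17.6, lay 13000 bp away and contained no ADD3 start. The ADD3-AS1 peak contained start sites of both genes. KRT7-AS, antisense to a simple epithelial keratin gene, stood at -0.97 ± 0.56 (SE) and the KRT7 peak at 0.47 ± 0.45 (SE) per the authors' deposited table, a difference of -1.44 ± 0.72. The peak labelled SLC25A30 contained the start of SLC25A30-AS1 and stood at -0.0087 ± 0.23 (SE) per the authors' deposited table, against the 1.11 of the antisense-labelled peak 3004 bp away. At SLC25A30-AS1 as at B4GALT1-AS1 the antisense label was thus on a neighbouring peak, and the peak at the antisense start carried the sense symbol and did not pass.

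**Figure D4:**
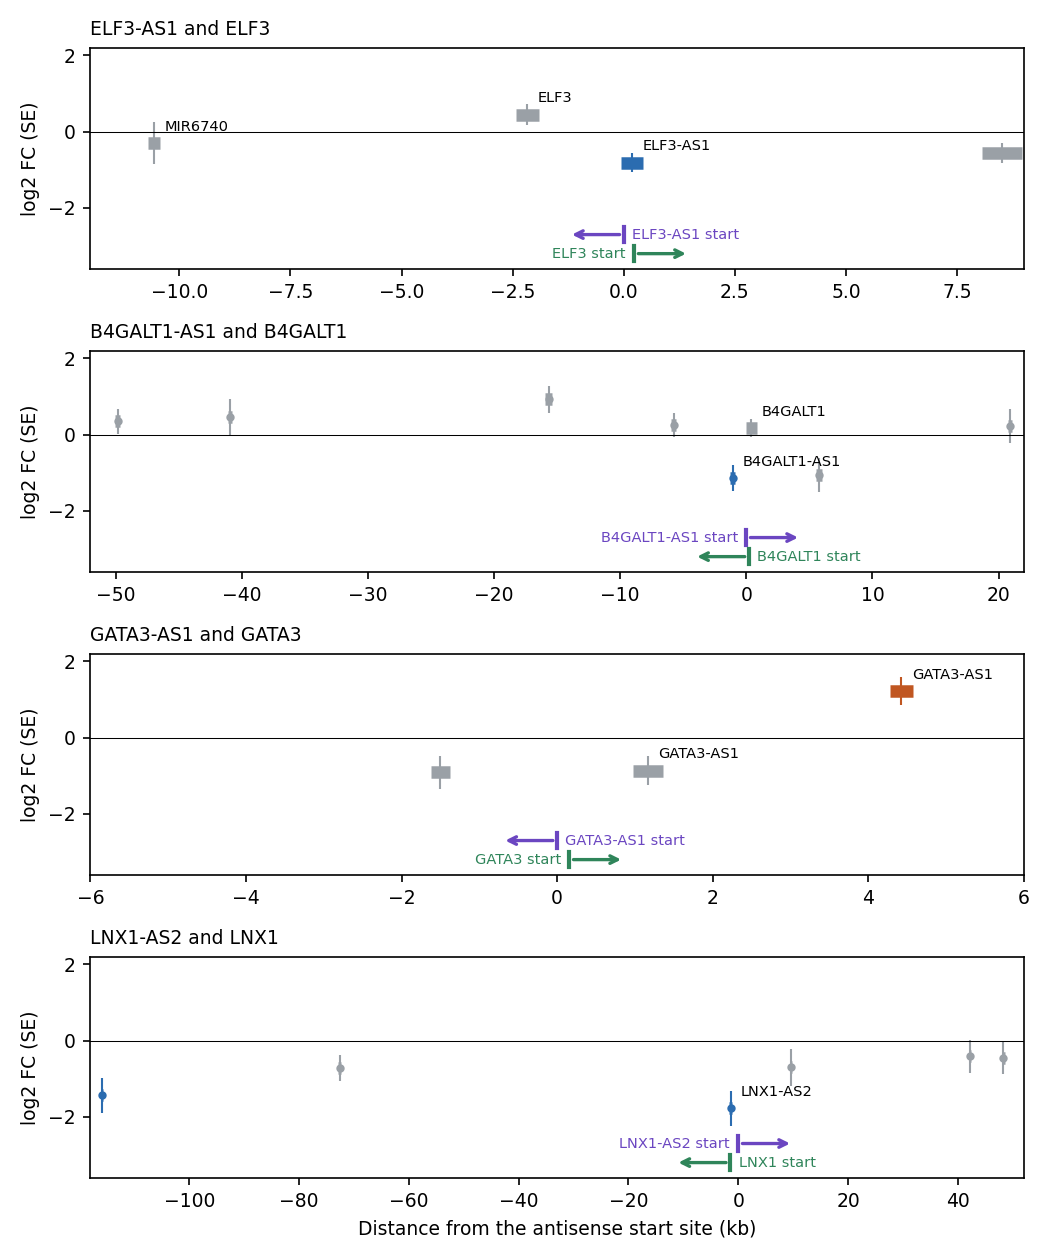
Peaks around 4 antisense genes, plotted by distance from the antisense start site in kb (horizontal) and log2 fold change with SE bars per the authors' deposited table (vertical). Blue is changed on the Up side, orange on the Down side and grey not passed. Arrows give the direction of each gene and the RefSeq start site used, which for LNX1 and B4GALT1 lies inside the gene body. At ELF3 the changed peak covers both starts, at B4GALT1 the peak over both starts is at 0.17 and the changed one lies beside it at -1.15, at GATA3 the peaks differ in sign, and at LNX1 all 6 peaks are below 0.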

How the data were processed

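ATAC-seq was done on 50000 to 100000 day 6 cells per sample with paired-end reads of 42 bp, per the labels' protocols, in 2 high and 2 low libraries grouped by their titles. Per the submitters' processing notes, the tools were BWA, MACS2 and DESeq2 (no versions) and the build GRCh38, also written hg38. How reads were shifted for Tn5, whether duplicates were removed and whether peaks came from pooled libraries the sources used here do not say; any of these could move a peak's count.

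Per the file headers, each peak has a mean normalized count over all libraries (a signal), a log2 fold change with SE, a Wald score, and raw and adjusted p-values, all made by the authors before they deposited the table. The authors' deposited p-values were adjusted by Benjamini-Hochberg over all 60875 peaks to within 3.4e-06. The Up and Down marks were set where the absolute log2 fold change reached 1 and the unadjusted p lay under 0.05 (0 exceptions). Depth per library is unknown. The titles call the replicates of each group biological; whether each came from its own differentiation is not stated further, and the p-values cover how these libraries vary.

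A peak was called at the authors' adjusted p under 0.05. The planned count test was replaced because the table holds a finished comparison. Members and lists were chosen with earlier results of these data known. Each antisense-labelled peak was paired with the nearest peak of its sense symbol on the chromosome; a within-pair difference has the root of the summed squared SEs and a 95% normal interval, without a test. Positions are as deposited, and the first base may count as 0 or 1. Gene bodies and start sites came from RefSeq (GRCh38.p14), which held the antisense symbol of 413 and the sense symbol of 447 of the 455 peaks; the nearest of several starts was used. Strand was read from the promoter table. Motifs were searched on both strands. Named were all changed members and their sense peaks, pairs with a changed sense peak, the 5 largest changes per side with a mean count no lower than the median, the 3 highest counts, the 5 largest differences with an interval without 0, and up to 2 per list with the smallest p; 1 changed member is counted but not reported here. The procedures (Python 3.11.15, pandas 2.3.3, SciPy 1.17.1) were tested on simulated data. Alternatives are given in the closing section.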

Additional observations from a re-analysis of the deposited data

How the results depend on the processing

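No paired analysis was possible because the table holds no library's own values. TMM, DESeq2 size factors, count filters and leaving out each library were therefore not run. Recentring on a running median along mean count and the limit to peaks within 1000 bp of the antisense start were chosen after the data were seen. At an adjusted p under 0.01 the 12 changed antisense-labelled peaks became 3, among them SMIM2-AS1 and LNX1-AS2, with 3 on the Up side and 0 on the other, and pairs with a changed antisense or sense peak became 0 and 0 in place of 6 and 4 (14 and 18 at an unadjusted p under 0.05). At an adjusted p under 0.1 there were 19 (10 on the Up side, 9 on the Down side), and 10 pairs had a changed antisense peak; fewer and more calls follow from these thresholds by construction. Within 1000 bp of the antisense start, 5 of 226 peaks changed, by construction fewer. With mean counts no lower than the median, 2 pairs had a changed sense peak, since the others hold a peak below it. The authors' marking gave 15 peaks, of which 10 had also passed the adjusted p, and the count limit gave 10, of which 9 had. Recentring gave 13, of which 11 had, and ended the calls of PRICKLE2-AS3 and LEF1 (adjusted p = 0.0687 and 0.0585). The median log2 fold change of the members ran from 0.00044 to 0.043 and the median within-pair difference from -0.026 to 0.0086 over the alternatives, the latter changing sign around 0. The share of pairs on the same side of 0 ran from 50.5% to 52.9%. With synonyms, 189 antisense genes in place of 185 had a labelled sense peak. Without values per library, replicate scatter and depth could not be examined, and peaks of low mean count carry the largest SEs.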
